A study of Mus musculus with 6 samples.

Results

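The autophagy machinery described here is a list of 40 genes, taken by gene name from a table of 56748 genes measured in mouse hearts. All 40 were found in the table, and all 40 passed the filter on low counts that kept 13888 genes for testing. The table holds 6 libraries, 1 per heart, with 3 Pontin cTG mice set against 3 WT littermates. The transgene of Pontin cTG mice is a human cDNA of Pontin with a flag tag, driven by the cardiomyocyte-active αMHC promoter, and WT littermates lack it. Pontin is an ATPase whose mouse gene is *Ruvbl1*. The animals were male mice on a C57Bl/6 background, 10 weeks old when treatment began. Both groups had received angiotensin II (Ang-II), a peptide that raises blood pressure and drives cardiac hypertrophy, from mini-osmotic pumps for 14 days at 1.5 mg/kg BW/day. The comparison therefore asked whether excess Pontin altered the autophagy genes in the Ang-II-stimulated heart. Hearts without Ang-II were not analysed here. The number of transgenic founder lines behind the 3 hearts is not given in the sources used here.

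Autophagy encloses cytoplasm, protein aggregates and worn organelles in a double membrane, the autophagosome, which then fuses with a lysosome for digestion. The ULK kinase complex starts the process, a lipid kinase complex built on Beclin marks the growing membrane, and lipids are delivered by ATG9, ATG2 and WIPI proteins. Enzymes that act like a ubiquitination cascade attach ATG8 proteins (LC3 and GABARAP) to this membrane, where cargo receptors dock. In the heart, autophagy clears damaged mitochondria and supplies substrates during starvation and pressure load. Most of its regulation acts on proteins and on the flux of membranes, which transcript levels do not measure.

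Library totals ran from 12436822 to 13194038 counts in WT and from 14584102 to 16888124 counts in Pontin cTG hearts. Between 23.8% and 26.7% of counts came from the mitochondrial genome. Pontin cTG replicate 2 stood apart, at 50.9 on the first principal component (48.6% of the variance), where the other 5 libraries lay between -23.1 and 16.2. Results that moved most without this library are given with and without it. All 6 cardiomyocyte markers were detected, with a summed level of 10220 to 13706 TPM (a level corrected for gene length and library size) in WT and 10413 to 13231 TPM in Pontin cTG hearts. The 3 lymphocyte markers were too low to be tested, with a summed level of at most 0.936 TPM in any library. These are whole-tissue samples, in which fewer cells of a type and less RNA per cell cannot be told apart. Mouse *Ruvbl1* had normalised counts of 216, 221 and 217 in WT and of 250, 250 and 240.0 in Pontin cTG hearts, a log2 fold change of 0.18 (SE 0.12) that did not pass the test. Since the transgene is of human sequence, its reads may be missed by the mouse gene, and this value is no measure of it.

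No autophagy gene passed the test for a difference between Pontin cTG and WT hearts. Of the 40 genes, 0 passed an adjusted p of 0.05 by the quasi-likelihood test of edgeR after Benjamini-Hochberg adjustment, as did 0% of all 13888 genes tested. At an unadjusted p under 0.05 the count was also 0 of 40, where 2.05% of all genes tested lay (1.02% higher and 1.03% lower in Pontin cTG). DESeq2 called 0 of 40 by its adjusted p (0.0072% of all genes) and 0 of 40 by its unadjusted p (1.58% of all genes). limma-voom with sample quality weights gave 0 of 40 by its adjusted p and 1 of 40, *Atg101*, by its unadjusted p (5.72% of all genes). Fitted log2 fold changes of Pontin cTG against WT were positive for 20 genes and negative for 20. Their median was 0.0029, beside 0.0013 over all genes tested, and they ran from -0.21 for *Lamp2* to 0.33 for *Atg101*.

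The intervals around these values were narrow compared with those of most genes. The 95% interval of the fold change, taken gene by gene with no correction for the number of genes, lay within 2-fold in either direction for 40 of 40 autophagy genes and for 80.2% of all genes tested. It lay within 1.5-fold for 31 of 40, beside 47.2% of all genes. The 9 genes with wider intervals were *Ulk1*, *Ulk2*, *Atg101*, *Rb1cc1*, *Atg9a*, *Wipi1*, *Atg4c*, *Pink1* and *Lamp2*. These 40 genes are well expressed, and higher counts give narrower intervals, so the 2 shares are not matched for level.

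**Figure D1:**
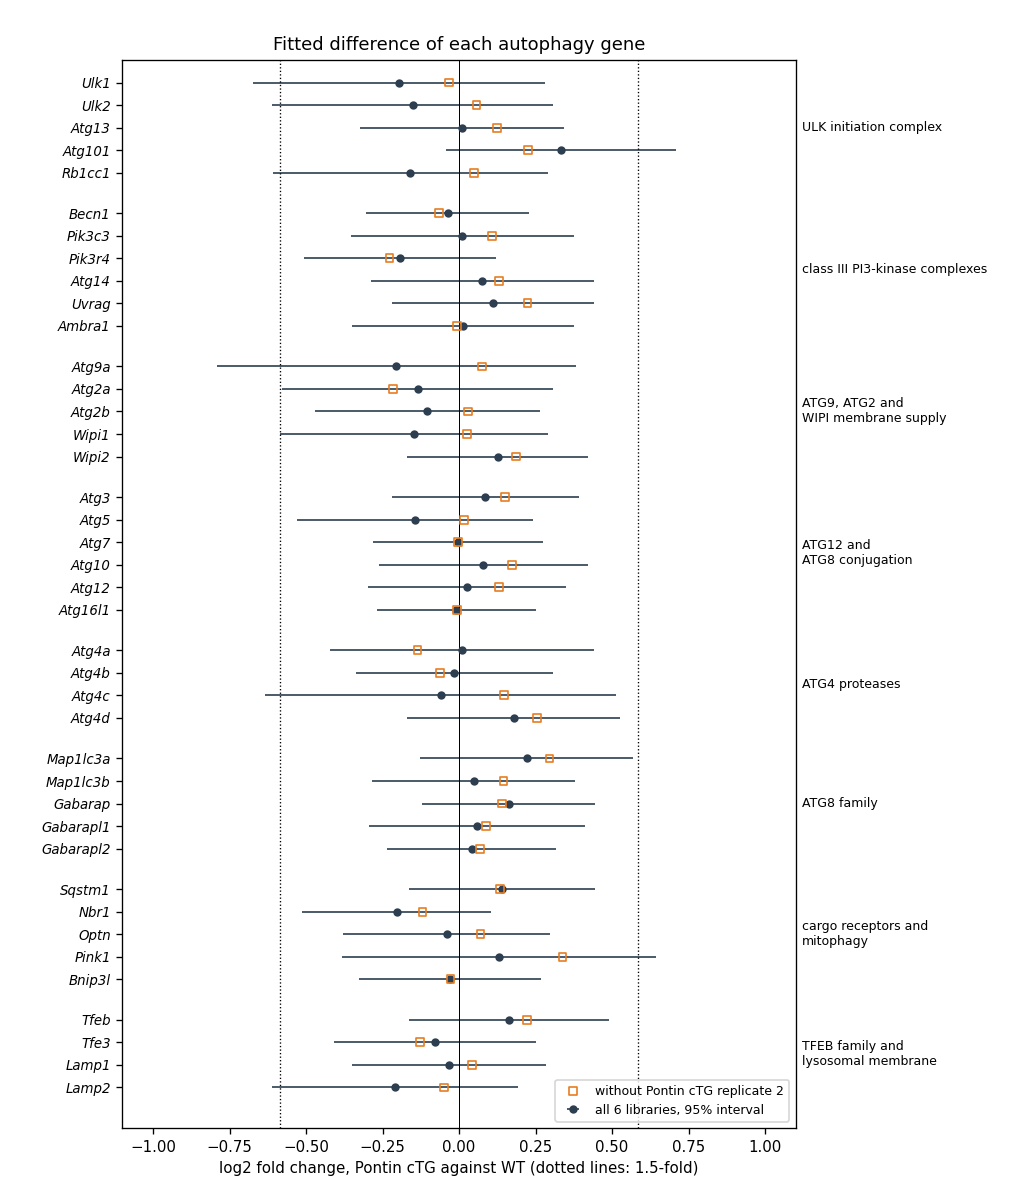
Log2 fold change of each of the 40 autophagy genes, Pontin cTG against WT, as the edgeR estimate with its 95% interval (3 hearts per group) and, as a second symbol, the estimate without Pontin cTG replicate 2. All 40 intervals include 0, and the estimates with all libraries lie between -0.21 and 0.33.

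Pontin cTG and WT values were fully separate for 2 of the 40 genes, 1 higher and 1 lower, against 8.33% of all genes tested (4.7% higher and 3.63% lower), so the share among the autophagy genes was no higher than the background. *Gabarap* (ENSMUSG00000018567, chromosome 11 from 69991143 to 69994951, GRCm38), which encodes an ATG8 protein, had normalised counts of 2202, 2055 and 2131 in WT and 2301, 2457 and 2393 in Pontin cTG hearts. All 3 Pontin cTG values lay above all 3 WT values, with a log2 fold change of 0.16 (SE 0.13). The other gene was *Nbr1* (ENSMUSG00000017119, chromosome 11 from 101552149 to 101581951, GRCm38), a receptor that binds both ubiquitin and ATG8 proteins. Its normalised counts were 1862, 2023 and 1853 in WT and 1784, 1463 and 1738 in Pontin cTG hearts. Here all 3 Pontin cTG values lay below WT, with a log2 fold change of -0.20 (SE 0.14) that became -0.12 (SE 0.10) without Pontin cTG replicate 2. A two-sided exact permutation test gave p = 0.1 for each, the smallest p that 3 hearts against 3 allow.

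**Figure D2:**
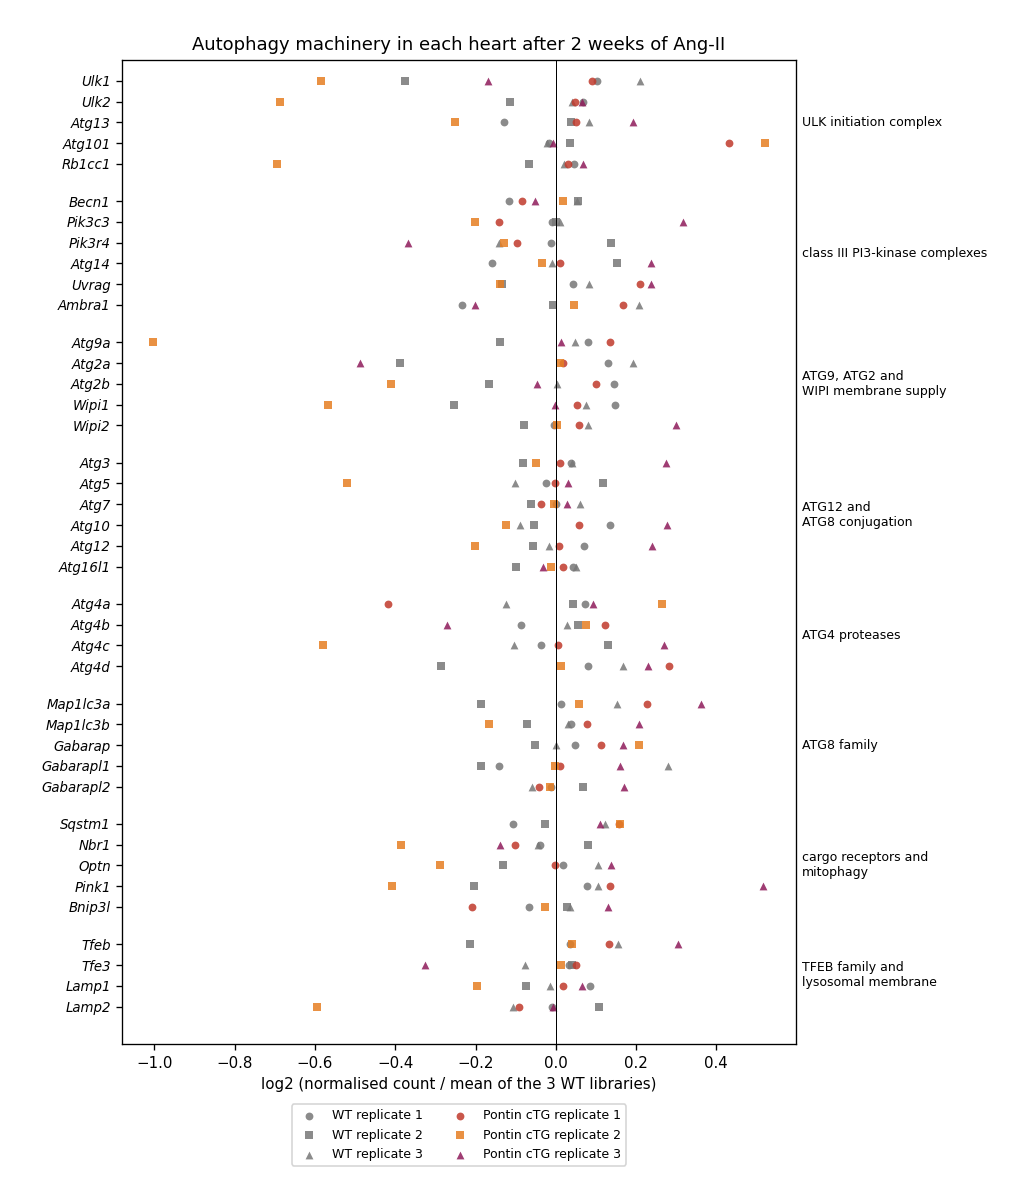
Normalised count of each autophagy gene in each of the 6 hearts, as log2 of its ratio to the mean of the 3 WT hearts, with the genes grouped by role. Squares mark the replicate 2 libraries of both groups, which are often the lowest symbols of a row, as for *Ulk1*, *Wipi1* and *Pink1*, while *Atg9a* in Pontin cTG replicate 2 lies farthest from 0.

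The initiation complex holds the kinases ULK1 and ULK2, the scaffold FIP200 (*Rb1cc1*), and ATG13 with its partner ATG101. *Atg101* (ENSMUSG00000037204, chromosome 15 from 101284272 to 101290945, GRCm38) had the largest fold change of the 40 genes. Its normalised counts were 182, 188 and 181 in WT and 248, 264 and 183 in Pontin cTG hearts. Replicates 1 and 2 of Pontin cTG lay above all WT hearts, while replicate 3 lay within the WT range. The log2 fold change was 0.33 (SE 0.17, 95% interval -0.04 to 0.71), and edgeR's quasi-likelihood test gave an unadjusted p of 0.0765 (adjusted p = 0.999). It kept a positive sign with each library left out, at 0.23 to 0.48. Without Pontin cTG replicate 3, the heart within the WT range, its unadjusted p was 0.011 in edgeR (adjusted p = 0.911, and 0.855 to 1.00 over all alternatives).

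*Ulk1* had normalised counts of 1576, 1131 and 1696 in WT and 1562, 978 and 1305 in Pontin cTG hearts. For *Ulk2* the values were 1639.7, 1446 and 1611 in WT and 1619, 973 and 1638 in Pontin cTG hearts. *Rb1cc1* stood at 1153, 1067 and 1132 in WT and at 1141, 690.1 and 1172 in Pontin cTG hearts. In all 3 genes replicate 2 of Pontin cTG was the lowest of the 6 libraries, and for *Ulk2* the other Pontin cTG hearts lay inside the WT range, while for *Rb1cc1* replicate 1 lay inside it and replicate 3 just above. The log2 fold changes of the 3 genes were -0.20, -0.15 and -0.16, and without that library they were -0.03, 0.06 and 0.05. *Atg13* gave 0.01 (SE 0.15). *Ulk1* and *Ulk2* were present at like levels, with *Ulk1* making up 46.0% ± 3.77 (SD, n = 3) of their summed TPM in WT and 45.8% ± 3.07 (SD, n = 3) in Pontin cTG hearts.

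The class III PI3-kinase complexes make the lipid that recruits later factors. The log2 fold changes of their 6 genes ran from -0.19 to 0.11 around a median of 0.01, and without Pontin cTG replicate 2 the median was 0.05. *Becn1*, the Beclin that holds the complex together, had normalised counts of 507, 571 and 570.1 in WT and 518, 557 and 530.1 in Pontin cTG hearts, so the groups overlapped (log2 fold change -0.04, SE 0.12). The lipid kinase itself, *Pik3c3*, averaged 287 ± 2.16 (SD, n = 3) in WT and 289 ± 59.4 (SD, n = 3) in Pontin cTG hearts. *Pik3r4*, its regulatory subunit, had the most negative value of the group. It stood at 333, 369 and 304 in WT and at 313, 307 and 259.9 in Pontin cTG hearts, which overlapped (log2 fold change -0.19, SE 0.14, -0.23 without Pontin cTG replicate 2). *Atg14* and *Uvrag*, which define the autophagosome-forming and the endosomal complex, gave 0.08 (SE 0.16) and 0.11 (SE 0.15). *Ambra1*, a Beclin-binding scaffold, gave 0.01 (SE 0.16).

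Among the genes of membrane supply, *Atg9a* depended most on a single library. It encodes a lipid scramblase carried on vesicles that seed the autophagosome (ENSMUSG00000033124, chromosome 1 from 75180860 to 75192196, GRCm38). Its normalised counts were 744, 639 and 728 in WT and 772, 351 and 710.3 in Pontin cTG hearts. Replicates 1 and 3 of Pontin cTG lay in or near the WT range, and replicate 2 lay 1.03 below the other 5 libraries on the log2 scale. The log2 fold change was -0.20 (SE 0.26), and 0.07 (SE 0.12) without that library. *Wipi1* and *Atg2b* went the same way, from -0.15 to 0.03 and from -0.10 to 0.03. *Atg2a*, which like *Atg2b* encodes a lipid transfer protein, went from -0.14 to -0.22. *Wipi2*, a reader of the lipid mark that recruits ATG16L1, had normalised counts of 586, 556 and 622 in WT and 612, 589 and 724 in Pontin cTG hearts. The groups overlapped, with a log2 fold change of 0.13 (SE 0.13). Of the summed TPM of *Wipi1* and *Wipi2* alone, *Wipi1* made up 87.7% ± 1.22 (SD, n = 3) in WT and 85.4% ± 2.43 (SD, n = 3) in Pontin cTG hearts. *Atg9a* overlaps *Ankzf1* on the opposite strand and *Atg2b* overlaps *Gskip*. Counts of these neighbours came to 25.9% and 52.0% of the autophagy gene's own, and since the strand setting of the counting is not stated, some reads could belong to either gene.

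The 6 genes of the conjugation cascade had log2 fold changes from -0.14 to 0.09, with a median of 0.01. ATG7 is the activating enzyme, ATG3 and ATG10 pass ATG8 and ATG12 on, and the complex of ATG12, ATG5 and ATG16L1 places ATG8 on the membrane. *Atg7* had normalised counts of 241, 231 and 252 in WT and 235, 241 and 246 in Pontin cTG hearts. The groups overlapped fully, with a 95% interval of the log2 fold change from -0.28 to 0.27. *Atg16l1* averaged 545 ± 31.1 (SD, n = 3) in WT and 542 ± 9.11 (SD, n = 3) in Pontin cTG hearts, with an interval from -0.27 to 0.25. *Atg3*, *Atg10* and *Atg12* gave 0.09, 0.08 and 0.03. *Atg5* stood at 296, 326 and 281 in WT and at 301, 209.8 and 308 in Pontin cTG hearts. Only replicate 2 of Pontin cTG lay below WT, and the log2 fold change moved from -0.14 (SE 0.17) to 0.02 (SE 0.13) without it.

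The ATG4 proteases trim new ATG8 proteins and later free them from membrane. *Atg4d* was the most abundant per length, with 39.1% of the summed ATG4 level in WT and 42.4% in Pontin cTG hearts. Its normalised counts were 634, 492 and 674 in WT and 729, 605 and 703 in Pontin cTG hearts, which overlapped (log2 fold change 0.18, SE 0.15). *Atg4a* and *Atg4b* gave 0.01 (SE 0.19) and -0.01 (SE 0.14). *Atg4c* had the lowest level of the 40 genes, at 3.50 ± 0.384 TPM (SD, n = 3) in WT and 3.35 ± 0.802 TPM (SD, n = 3) in Pontin cTG hearts. It gave -0.06 (SE 0.25), and 0.15 (SE 0.21) without Pontin cTG replicate 2. *Atg4b* shares its locus with *Thap4* on the opposite strand, whose counts came to 84.1% of those of *Atg4b*. *Kri1*, opposite *Atg4d*, had 8.52%.

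All 5 genes of the ATG8 family, the proteins conjugated to the autophagosome, had positive fold changes, from 0.04 to 0.22 on the log2 scale with a median of 0.06. None of the 5 passed the test. *Map1lc3a* (ENSMUSG00000027602, chromosome 2 from 155276297 to 155278073, GRCm38) had normalised counts of 4471, 3897 and 4929 in WT and 5184, 4617 and 5694 in Pontin cTG hearts. Replicates 1 and 3 of Pontin cTG lay above all WT hearts and replicate 2 between them (log2 fold change 0.22, SE 0.15, 95% interval -0.13 to 0.57). *Map1lc3b*, the LC3 form most used as a marker of autophagosomes, stood at 3172, 2938 and 3157 in WT and at 3262, 2754 and 3568 in Pontin cTG hearts. These overlapped, with a log2 fold change of 0.05 (SE 0.15). *Gabarapl1* had normalised counts of 912, 885 and 1222 in WT and 1014, 1005 and 1124 in Pontin cTG hearts, with all Pontin cTG values inside the WT range. *Gabarapl2* stood at 727, 768 and 703 in WT and at 712, 726 and 824 in Pontin cTG hearts, and only replicate 3 lay outside the WT range. Their log2 fold changes were 0.06 (SE 0.16) and 0.04 (SE 0.12). *Zcchc14*, opposite *Map1lc3b*, had counts of 20.9% of that gene's.

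Per length, the make-up of the ATG8 family was alike in both groups. *Map1lc3a* contributed 61.1% ± 1.77 (SD, n = 3) of the family's TPM in WT and 63.0% ± 1.81 (SD, n = 3) in Pontin cTG hearts. *Gabarap* followed with 18.9% in WT and 18.7% in Pontin cTG hearts. *Gabarapl1*, *Map1lc3b* and *Gabarapl2* made up 8.12%, 6.72% and 5.18% in WT and 7.51%, 6.11% and 4.68% in Pontin cTG hearts. The family sum was 911, 875 and 1016 TPM in WT and 1076, 1028 and 1086 TPM in Pontin cTG hearts. All 3 Pontin cTG sums lay above all WT sums on this scale. The closest were 1028 TPM in Pontin cTG replicate 2 and 1016 TPM in WT replicate 3. TPM leaves out the TMM library scaling used for the normalised counts, with factors of 1.08 and 0.988 for these libraries. The separation therefore depends on the scaling. The sum was formed after the single values were known, and it was not tested. The exon length in the table covers every annotated transcript of a gene, so a gene with long, little-used exons is set too low on this scale.

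**Figure D3:**
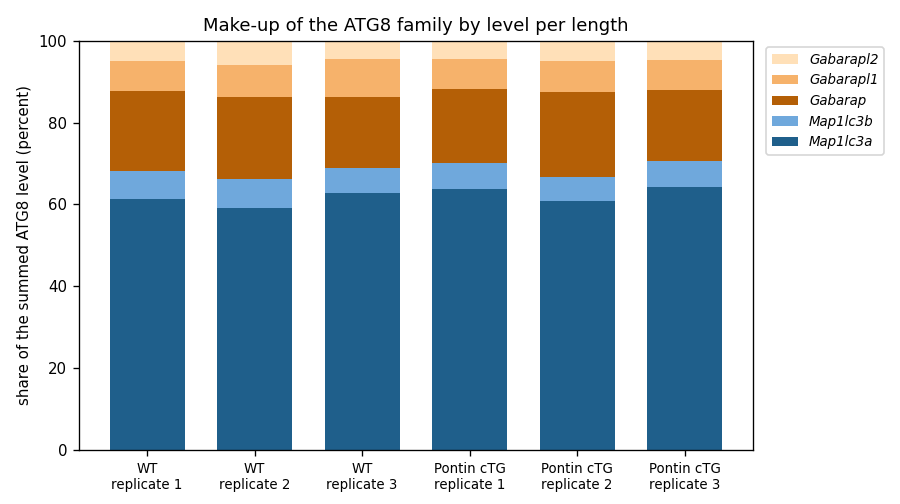
Share of each of the 5 ATG8 family genes in their summed TPM, in percent, stacked by gene for each of the 6 hearts. *Map1lc3a* fills most of every bar (59.2% to 64.2%). The summed level, which the bars do not show, ran from 875 to 1086 TPM.

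Cargo receptors link ubiquitinated or mitochondrial cargo to ATG8. *Sqstm1*, which encodes p62, had normalised counts of 4573, 4832 and 5362 in WT and 5489, 5496 and 5309 in Pontin cTG hearts. A single WT heart lay inside the Pontin cTG range, and the log2 fold change was 0.14 (SE 0.13). *Optn* and *Bnip3l*, a ubiquitin-binding receptor and a mitochondrial receptor, gave -0.04 (SE 0.15) and -0.03 (SE 0.13). *Bnip3l* has a processed pseudogene with 7.02% of its counts. *Pink1*, the kinase that tags damaged mitochondria, had the widest spread in absolute normalised counts, though not relative to its level. It stood at 7538, 6197 and 7684 in WT and at 7844, 5383 and 10204 in Pontin cTG hearts. Its lowest and highest values both came from Pontin cTG hearts, with a log2 fold change of 0.13 (SE 0.23, 95% interval -0.38 to 0.64).

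TFEB and TFE3 are transcription factors that bind the E-box CACGTG and are known to drive genes of lysosomes and autophagy. LAMP1 and LAMP2 coat the lysosomal membrane, and LAMP2 is needed for fusion with autophagosomes. *Tfeb* had normalised counts of 324, 273 and 352 in WT and 347, 325 and 391 in Pontin cTG hearts, which overlapped (log2 fold change 0.16, SE 0.14). *Tfe3* gave -0.08 (SE 0.15). *Lamp1* gave -0.03 (SE 0.14) at 5884 ± 334 (SD, n = 3) normalised counts in WT and 5750.1 ± 539.8 (SD, n = 3) in Pontin cTG hearts. *Lamp2* stood at 3178, 3448 and 2972 in WT and at 3003, 2120.1 and 3182 in Pontin cTG hearts. Again a single library, Pontin cTG replicate 2, lay outside the WT range, and the log2 fold change of -0.21 (SE 0.18) became -0.05 (SE 0.11) without it.

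To show which autophagy genes carry that E-box near a transcript start, promoters from RefSeq (GRCm38.p6, 250 bases before to 50 bases after the start that RefSeq lists) were searched for CACGTG, which reads the same on both strands. Of the 40 genes, 33 had 39 promoters in this table. The motif lay in 5 of 39 (12.8%), beside 2349 of 32851 promoters of all genes (7.15%). The longer form TCACGTGA, which contains the shorter one, lay in 1 of the 39, that of *Atg3*, and in 0.974% of all promoters. The stretches that hold the motif are printed 5′ to 3′ on the gene's strand, with CACGTG in capitals.
Atg7, chr6:114670954-114670979, plus strand: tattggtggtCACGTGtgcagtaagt
Lamp1, chr8:13159090-13159161, plus strand: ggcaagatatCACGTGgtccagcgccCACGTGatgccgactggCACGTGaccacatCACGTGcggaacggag
Atg5, chr10:44268315-44268340, plus strand: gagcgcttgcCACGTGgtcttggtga
Atg14, chr14:47568420-47568445, minus strand: aacaaaatccCACGTGactggccctg
Atg3, chr16:45158725-45158773, plus strand: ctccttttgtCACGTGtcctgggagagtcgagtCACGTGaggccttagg
The RefSeq starts of *Atg7* and *Atg14* lie 27999 and 2215 bases inside the gene as GENCODE M21 places it, so these 2 stretches belong to other starts than the outermost one. *Lamp1* holds 4 copies within 72 bases and *Atg3* holds 2. The log2 fold changes of these 5 genes were -0.0036 (*Atg7*), -0.03 (*Lamp1*), -0.14 (*Atg5*), 0.08 (*Atg14*) and 0.09 (*Atg3*), and the 95% interval of each included 0. A match is a description of the letters in this window and says nothing of binding in these hearts.

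The 40 genes differed far more in level than between groups. Per length, *Map1lc3a* was highest at 571 ± 60.2 TPM (SD, n = 3) in WT and 670.0 ± 38.4 TPM (SD, n = 3) in Pontin cTG hearts. *Pink1* followed at 406 and 445 TPM, then *Lamp1* at 335 and 330 TPM, *Sqstm1* at 224 and 249 TPM, and *Gabarap* at 176 and 199 TPM in WT and Pontin cTG hearts. The next gene, *Gabarapl1*, stood at 76.2 and 79.8 TPM, and its range over the 6 hearts did not overlap that of *Gabarap*. The ranges of neighbours in this order were also separate between *Lamp1* and *Sqstm1* and between *Atg13* and *Atg10*, while all other neighbours overlapped. The conjugation enzymes and the PI3-kinase genes lay in the lower part, from 4.68 TPM for *Pik3r4* in Pontin cTG hearts to 21.6 TPM for *Atg10* in Pontin cTG hearts. Together the 40 genes took 0.345% to 0.395% of the counts of a library.

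Pontin cTG replicate 2 was the lowest of the 6 libraries for 19 of the 40 genes (47.5%), beside 30.7% of all genes tested. It was the highest for 4, beside 30.2% of all genes tested, namely *Atg101*, *Atg4a*, *Gabarap* and *Sqstm1*. It lay at least 0.5 below the mean of the other 5 libraries on the log2 scale for 9 genes (22.5%, beside 14.5% of all genes), and at least 0.5 above it for 0 genes (16.9% of all genes). WT replicate 2 was the lowest WT library and Pontin cTG replicate 2 the lowest Pontin cTG library in 18 of the 40 genes, beside 22.8% of all genes. These libraries also had the highest summed level of 5 fibroblast markers, 454 and 418 TPM, where the other 4 ranged from 254 to 300.1 TPM. They had the highest sums of 6 cardiomyocyte markers too, at 13706 and 13231 TPM, where the other 4 reached at most 11548 TPM. Not all of these markers went this way: *Ryr2*, the calcium release channel, was lowest in Pontin cTG replicate 2, at 10842 normalised counts where the other 5 libraries ranged from 16789 to 24380.1, and *Actn2* lay 0.04 below the others there on the log2 scale. The summed level of 4 endothelial markers was not shared in this way. It was 396 TPM in Pontin cTG replicate 2, where the other 5 libraries ranged from 247 to 316 TPM, with WT replicate 2 at 310 TPM. The part of cell make-up or of any other property of these libraries in the values was not tested.

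Without Pontin cTG replicate 2, 27 of the 40 log2 fold changes were positive and their median was 0.07, beside -0.0049 over all genes. The count past an adjusted p of 0.05 was 0 of 40 in edgeR's quasi-likelihood test (0.0215% of all genes). At an unadjusted p under 0.05 there were 2, *Map1lc3a* and *Pink1* (4.91% of all genes). *Map1lc3a* then had a log2 fold change of 0.30 (SE 0.12, unadjusted p = 0.0329 in edgeR) and *Pink1* one of 0.34 (SE 0.14, unadjusted p = 0.0348 in edgeR). All values of a group were separate from the other's for 7 of 40 genes, beside 21.5% of all genes when 2 hearts are set against 3.

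**Figure D4:**
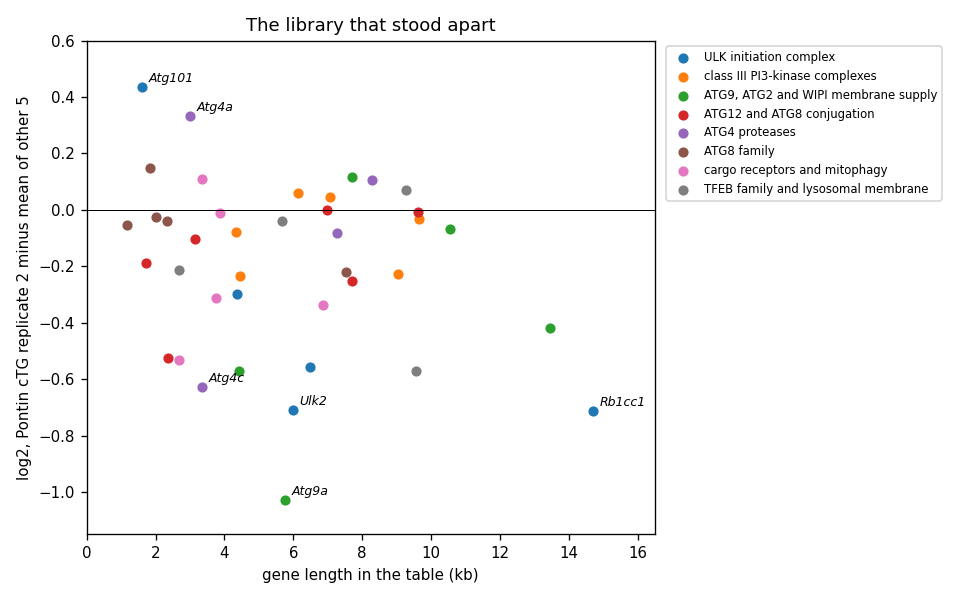
Deviation of Pontin cTG replicate 2 from the mean of the other 5 libraries (log2 of normalised counts) against gene length in kb, 1 point per autophagy gene, coloured by role. *Atg9a* lies lowest at -1.03 and *Atg101* highest at 0.44, and the rank correlation with length across the 40 genes is -0.14, beside -0.20 over all genes tested.

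In 63 further genes of the autophagy and lysosome pathway, 0 passed an adjusted p of 0.05 and 1 had an unadjusted p under 0.05 in edgeR's quasi-likelihood test, a share no higher than the 2.05% of all genes tested. That gene was *Epg5*, which encodes a tether for the fusion of autophagosomes with lysosomes. Its normalised counts were 211, 243 and 212 in WT and 179.6, 145 and 142 in Pontin cTG hearts. All 3 Pontin cTG values lay below WT, with a log2 fold change of -0.52 (SE 0.15), and edgeR gave it an unadjusted p of 0.00868 (adjusted p = 0.999). The value ran from -0.62 to -0.45 with each library left out. Of the 13 fusion genes, 10 had negative fold changes, with a median of -0.04, and without Pontin cTG replicate 2 the median was -0.0039 with 6 of 13 positive. Over the 63 genes, 26 fold changes were positive and 37 negative, with a median of -0.04. Pontin cTG replicate 2 was the lowest library for 30 of them (47.6%, beside 30.7% of all genes tested). Without that library 32 fold changes were positive and the median was 0.00014.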

How the data were processed

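The authors deposited whole-number counts per gene for 6 heart libraries in a single table, with no normalisation. The methods of the study name Trimmomatic, STAR, mm10 and Gencode M25, while the submitters' processing notes name fastp, HISAT2, featureCounts, DESeq2 and GRCm39. Which of these made the table, and its strand setting, are not given in the sources used here. The table's gene_length column, also deposited, served as exon length for TPM.

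From the counts, genes were kept by filterByExpr (minimum count 10), scaled by TMM and compared by the quasi-likelihood test of edgeR 4.0.16 (robust) in R 4.3.3, with a single term for genotype and p-values adjusted by Benjamini-Hochberg over 13888 genes. The common biological coefficient of variation was 0.197. Normalised counts are counts scaled to TMM library sizes. Replicates are separate mice by their labels. No pair of libraries was alike within counting noise (chi-square per gene of at least 5.54). Same-numbered libraries had correlated deviations of 0.0772, 0.432 and 0.193, not all above 0.1, so no pairing was used. Simulated libraries with 100 genes changed 2-fold and 100 changed 4-fold, among 13712 genes tested, gave edgeR calls for 67 and 100 of them. In this simulation edgeR also called 13 unchanged genes. The changed genes were drawn only from those above a floor on mean counts, so the weakest genes were not covered.

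Values by library were given for the gene with the smallest p in each of the 8 roles, genes with an unadjusted p under 0.05, genes whose groups did not overlap and the 5 ATG8 genes, with pathway genes named by the same p or separation (1 of these is not reported here), and *Ulk1*, *Ulk2*, *Rb1cc1*, *Atg9a*, *Pink1*, *Sqstm1*, *Becn1*, *Atg7* and *Tfeb* were added to these after their values were seen, as was the comparison of Pontin cTG replicate 2 with the rest. The members and lists were chosen with earlier results of these data known. Alternatives were DESeq2 1.42.0, edgeR with DESeq2 size factors or with library size alone, no filter, at least 10 counts in every library, no mitochondrial genome genes, a replicate block, limma-voom (limma 3.58.1) with quality weights, and each library left out. Gene positions are from GENCODE M21 (GRCm38), since 1435 of 52073 shared genes have the table's coordinates and the table names no build. Python 3.11.15 and SciPy 1.17.1 were used for the exact tests.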

Additional observations from a re-analysis of the deposited data

How the results depend on the processing

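In all 14 alternatives, 0 of the 40 autophagy genes and 0 of the 63 further pathway genes passed an adjusted p of 0.05, and the adjusted p of an autophagy gene ran from 0.855 to 1.0. The median log2 fold change of the 40 genes was lowest, at -0.032, when Pontin cTG replicate 3 was left out and highest, at 0.069, when replicate 2 of that group was. The count at an unadjusted p under 0.05 was 1 (*Atg101*) with limma-voom and 0 to 2 with each library left out. The count with groups that did not overlap was 3 to 8 with each library left out, a setting that leaves 2 hearts in 1 group and in which 13.2% to 21.5% of all genes were separate. As the fold changes are small, 27 of the 40 genes changed sign in at least 1 alternative, 14 of them when Pontin cTG replicate 3 was left out and 11 when replicate 2 of that group was, and the cause was not tested. With the replicate number as a block, which the labels do not tie to a litter or batch, 0 genes were called, the median was -0.0065, and *Pik3c3* (-0.0057) and *Atg4a* (-0.00998) changed sign. Library size alone gave 0.027 for *Atg7*, 0.023 for *Atg16l1*, 0.019 for *Atg4b* and 0.00037 for *Bnip3l*. A minimum of 10 counts in every library gave 0.0047 for *Atg7*, and no filter gave -0.0026 for *Atg4a*. limma-voom gave 0.0019 for *Atg5*, -0.21 for *Atg4a*, 0.027 for *Atg4b* and 0.088 for *Atg4c*. With each library left out, the log2 fold changes that changed sign ran from -0.27 to 0.057 for *Ulk2*, -0.091 to 0.12 for *Atg13*, -0.29 to 0.0503 for *Rb1cc1*, -0.17 to 0.11 for *Pik3c3*, -0.011 to 0.16 for *Atg14*, -0.088 to 0.14 for *Ambra1*, -0.40 to 0.075 for *Atg9a*, -0.30 to 0.014 for *Atg2a*, -0.21 to 0.029 for *Atg2b*, -0.26 to 0.026 for *Wipi1*, -0.018 to 0.15 for *Atg3*, -0.24 to 0.015 for *Atg5*, -0.035 to 0.036 for *Atg7*, -0.0303 to 0.17 for *Atg10*, -0.094 to 0.13 for *Atg12*, -0.056 to 0.025 for *Atg16l1*, -0.14 to 0.19 for *Atg4a*, -0.078 to 0.10 for *Atg4b*, -0.26 to 0.15 for *Atg4c*, -0.038 to 0.15 for *Map1lc3b*, -0.027 to 0.23 for *Gabarapl1*, -0.027 to 0.088 for *Gabarapl2*, -0.14 to 0.07 for *Optn*, -0.11 to 0.34 for *Pink1*, -0.12 to 0.062 for *Bnip3l*, -0.14 to 0.032 for *Tfe3* and -0.084 to 0.042 for *Lamp1*. With 3 hearts a group at this depth, the 95% interval reached beyond 1.5-fold for 9 of the 40 genes, so a change of that size was not excluded in them, and every statement concerns transcripts of whole hearts.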

Other observations

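Beyond *Epg5*, Pontin cTG and WT values were separate in 5 of the 63 further pathway genes, so in 6 in all (beside 8.33% of all genes tested). *Mcoln1*, which encodes a calcium channel of the lysosome, had normalised counts of 306, 284 and 326 in WT and 348, 355 and 359 in Pontin cTG hearts (log2 fold change 0.21, SE 0.12). *Lamtor1*, an anchor of nutrient signalling on the lysosome, stood at 1022, 1033 and 1026 in WT and at 1148, 1176 and 1067 in Pontin cTG hearts (0.14, SE 0.12). In both genes every Pontin cTG heart lay above WT. Values below WT in every Pontin cTG heart were seen for *Tmem41b* and *Vps18*. *Tmem41b*, a lipid scramblase of the endoplasmic reticulum, gave -0.28 (SE 0.13), and *Vps18*, a subunit of the tethers for fusion with lysosomes, gave -0.17 (SE 0.13). None of the 5 had an unadjusted p under 0.05 in edgeR's quasi-likelihood test, and 0 passed an adjusted p of 0.05.

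By list, the log2 fold changes of the 15 genes of nutrient signalling had a median of -0.11 (6 positive, 9 negative), which turned to 0.02 (8 positive) without Pontin cTG replicate 2. The 14 genes of lysosomal content and acidification had a median of -0.02 (7 positive, 7 negative), the 11 further genes of autophagosome formation one of -0.03 (4 positive, 7 negative), and the 10 further cargo and mitophagy receptors one of 0.01 (6 positive, 4 negative). Without Pontin cTG replicate 2 these 3 medians were -0.03, -0.02 and 0.14. The motif CACGTG lay in 14 of 62 promoters of these lists (22.6%), beside 12.8% of those of the 40 autophagy genes.

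WT replicate 2 also had the highest summed level of 5 macrophage markers, at 127 TPM, where the other 5 libraries ranged from 47.5 to 71.7 TPM. The log2 fold changes of these markers in Pontin cTG against WT were -0.71 (*Cd68*), -0.66 (*Mrc1*), -0.46 (*Adgre1*), -0.39 (*Csf1r*) and -0.39 (*Cd163*). For *Csf1r* every Pontin cTG heart lay below WT. For *Mrc1*, edgeR's quasi-likelihood test gave an unadjusted p of 0.0484 (adjusted p = 0.999). The part of these marker values in those of the pathway genes was not tested.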
